A study of Mus musculus with 22 samples.

Results

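The long noncoding RNAs examined here were 10 named genes, Malat1, Neat1, Meg3, Rian, Mirg, Miat, Snhg11, Snhg14, Kcnq1ot1 and Pantr1, and a gene entered when its Ensembl identifier had a row in the count table of 39056 transcripts. A row was found for 8 of the 10, and all 8 passed the filter on low counts. Snhg14 and Kcnq1ot1 were not analysed here. RNA came from the prefrontal cortex (PFC) of 11 male mice of 8 to 12 weeks on a C57BL/6J background. Each mouse gave a TRAP library, RNA pulled down with tagged ribosomes, and a total-RNA library from the same homogenate, 22 libraries in all. Both kinds were made from the supernatant of the detergent homogenate after centrifugation, so RNA lost to the pellet was in neither. Control mice (n = 3; mice 1, 4 and 7) received saline, EtOH mice (n = 4; mice 2, 5, 8 and 9) received ethanol to a daily dose of 2 g/kg, and EtOH + ABT-888 mice (n = 4; mice 3, 6, 10 and 11) received ethanol and, on day 4 only, the PARP inhibitor ABT-888 at 25 mg/kg. Injections were intraperitoneal, 2 per day for 4 days, and tissue was taken after the last of them. All mice, Control mice included, carried the tetO-EGFP/Rpl10a and CaMKIIα-tTA transgenes, so the tag on the ribosomal protein depended on the CaMKIIα promoter, which is active mainly in excitatory pyramidal neurons, while total-RNA came from every cell type of the tissue.

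Long noncoding RNAs are transcribed and spliced much like mRNAs but are not known to act through a protein, and many stay in the nucleus, where no translating ribosomes are found. Malat1 is retained in nuclear speckles, which store splicing factors, and Neat1 is the scaffold of paraspeckles. Meg3, Rian and Mirg are made from the maternal copy of the imprinted Dlk1-Dio3 domain and carry C/D small nucleolar RNAs or microRNAs in their exons and introns. Miat (also called Gomafu) is a nuclear RNA of neurons, and Snhg11 is a spliced host of small nucleolar RNAs. Pantr1 lies beside Pou3f3, a transcription factor gene of cortical neurons.

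In mm10, Malat1 and Neat1 neighbour each other on the minus strand of chr19, at chr19:5795690-5802672 and chr19:5824708-5845478. Each is annotated in GENCODE M21 as exon over its whole span (6983 and 20771 bases). Malat1 and the long isoform of Neat1 are known to lack a poly(A) tail made in the usual way, unlike the short Neat1 isoform, and their 3′ ends are protected by a triple helix of 2 U-rich stretches and an A-rich stretch. These elements are shown here because they set this pair apart from the other 6 RNAs in sequence. Capitals mark, in the order of the transcript, the U-rich stretches (written with T) and then the A-rich stretch, and exactly these letters were searched on the transcript strand. The first window is chr19:5795982-5796081 and the second is chr19:5824708-5824807, both minus strand, each 100 bases of the annotated transcript read 5′ to 3′. The Neat1 window closes the annotated transcript (base 20771 of 20771), whereas the Malat1 window ends at base 6691 of 6983 and is internal to the annotated one.

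Malat1: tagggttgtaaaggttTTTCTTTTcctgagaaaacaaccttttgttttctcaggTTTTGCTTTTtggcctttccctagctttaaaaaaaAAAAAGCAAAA

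Neat1: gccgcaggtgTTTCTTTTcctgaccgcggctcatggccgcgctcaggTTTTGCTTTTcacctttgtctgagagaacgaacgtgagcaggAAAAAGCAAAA

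Among 3012 genes with a longest annotated transcript of 1000 bases or more (lincRNA genes and the 8 RNAs), 2, or 0.0664%, held all 3 stretches, and these were Malat1 and Neat1.

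Meg3 (chr12:109541001-109571726), Rian (chr12:109603940-109661716) and Mirg (chr12:109729764-109749460) follow each other on the plus strand of chr12, with 18089, 18234 and 7292 annotated exon bases. The Meg3 promoter is shown because Meg3 lies first in this row of genes. RefSeq lists 2 for Meg3, and the upstream one is printed. The other, chr12:109545148-109545447, held none of the 3 motifs below. The window chr12:109540746-109541045 runs from 250 bases before the start to 50 after it (RefSeq, GRCm38.p6), and capitals mark a CCAAT box at position -100, the cAMP response element TGACGTCA at position -57 and a TATA box (TATAAA, read on both strands, the matches overlapping) at position -25. The start is position 0.

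Meg3 promoter: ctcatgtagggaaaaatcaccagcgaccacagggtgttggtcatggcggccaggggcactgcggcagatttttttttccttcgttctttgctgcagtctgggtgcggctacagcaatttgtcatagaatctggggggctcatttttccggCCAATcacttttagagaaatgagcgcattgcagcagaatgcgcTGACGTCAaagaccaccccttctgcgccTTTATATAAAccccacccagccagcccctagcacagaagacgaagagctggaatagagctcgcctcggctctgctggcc

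On either strand, TGACGTCA was found in 1.79% of 32851 RefSeq promoters of the same length, TATAAA in 13.6% and CCAAT in 37.4%, and all 3 together in 21 of them. Of the 8 RNAs, 6 had a promoter in this table, and no other of those windows held TGACGTCA.

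Meg3 and Mirg contain 2 and 4 microRNA hairpins that lie entirely inside their annotated exons, whereas the 4 hairpins of Rian lie in introns. Mature arms with their seeds (bases 2 to 8, in capitals; RefSeq, GRCm38.p6) are given for 1 hairpin of Meg3 and for those of Mirg, and no 2 of them share a seed.

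miR-770-5p (in Meg3): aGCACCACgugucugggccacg

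miR-134-5p (in Mirg): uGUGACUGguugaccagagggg

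miR-485-3p (in Mirg): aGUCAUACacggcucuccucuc

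miR-377-3p (in Mirg): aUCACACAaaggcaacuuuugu

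miR-410-3p (in Mirg): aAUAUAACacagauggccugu

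Miat (chr5:112213228-112229395, minus strand) is known for repeats of ACTAAC, letters that resemble the intron branch point. Its longest annotated transcript, 9163 bases, held 11 of them, against 0 to 4 in the longest transcripts of the other 7 RNAs. At 1.20 per kilobase, this density was reached by 0.896% of the 3012 genes above. The stretch chr5:112217304-112217383 holds 3, in capitals, transcript strand.

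Miat: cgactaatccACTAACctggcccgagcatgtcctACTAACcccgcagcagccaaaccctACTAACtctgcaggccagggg

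Snhg11 (chr2:158375638-158386145, plus strand) is listed as protein_coding in this annotation, although it is named as a small nucleolar RNA host. Pantr1 (chr1:42590782-42694842, minus strand) has 4458 exon bases in a span of 104061. Antisense rows of the table share exon bases with Meg3 (Gm26906, 1228 bases) and Miat (Gm26953, 2260 bases). The strand setting of the counting is not given in the sources used here, so reads in those bases cannot be assigned with certainty.

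TRAP libraries held 6570957 to 22002618 counted reads and total-RNA libraries 22132534 to 32421392. Mitochondrially encoded genes took 0.152% to 0.636% of counts in TRAP and 3.81% to 7.82% in total-RNA. The labelled cell type was checked with marker lists in Control. In TRAP all 7 astrocyte, 6 oligodendrocyte, 6 microglia and 5 endothelial markers were lower than in total-RNA, but of 6 excitatory neuron markers 1 (Nrgn) was higher and 4 were lower, and of 6 interneuron markers 3 were higher and 1 lower. Camk2a itself did not differ by the test (log2 fold change -0.17, SE 0.11). Only Cx3cr1 among the markers was at 0 in any library, in 2 TRAP libraries. The TRAP library of EtOH + ABT-888 mouse 6 stood apart. It was the smallest and gave 2.17% of its counts to Gm42418, a transcript that overlaps ribosomal RNA, against at most 0.460% in the other 21. Without it 3 of the 8 RNAs in place of 4 were called lower in TRAP in EtOH + ABT-888, and the comparisons of EtOH + ABT-888 with Control and with EtOH in TRAP called 0 of the 8 with and without it.

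Malat1 was the most abundant of the 8 RNAs in both sample types. Levels between genes are compared here as CPM (counts scaled to a common library size with TMM factors) per kilobase of exon. Exon length is the union over all annotated isoforms. Which isoforms were present was not measured, and the order depends on it. Without the length, Neat1 was at 12.5 CPM and Miat at 14.3 CPM in total-RNA. In total-RNA Malat1 reached 552 ± 184 CPM per kilobase (SD, n = 11 libraries), then Rian with 18.9 ± 2.67, Snhg11 with 9.31 ± 2.20, Meg3 with 9.01 ± 2.71, Pantr1 with 8.97 ± 2.14, Miat with 1.54 ± 0.406, Neat1 with 0.602 ± 0.146 and Mirg with 0.333 ± 0.0722. Within this order, Snhg11 and Meg3, and Meg3 and Pantr1, did not differ beyond the SD of their within-library difference, and the other neighbours did. In TRAP the order began with Malat1 (131 ± 47.8 CPM per kilobase) and Pantr1 (8.17 ± 1.64), followed by Rian (7.66 ± 1.96), Snhg11 (5.19 ± 1.75), Meg3 (3.90 ± 1.85), Miat (0.621 ± 0.383), Neat1 (0.257 ± 0.164) and Mirg (0.149 ± 0.106). There the neighbouring pairs Pantr1 and Rian, Snhg11 and Meg3, and Neat1 and Mirg did not differ beyond that spread. By CPM, which is not scaled to length, Malat1 ranked 9th of 14072 transcripts in total-RNA and 110th in TRAP.

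**Figure D1:**
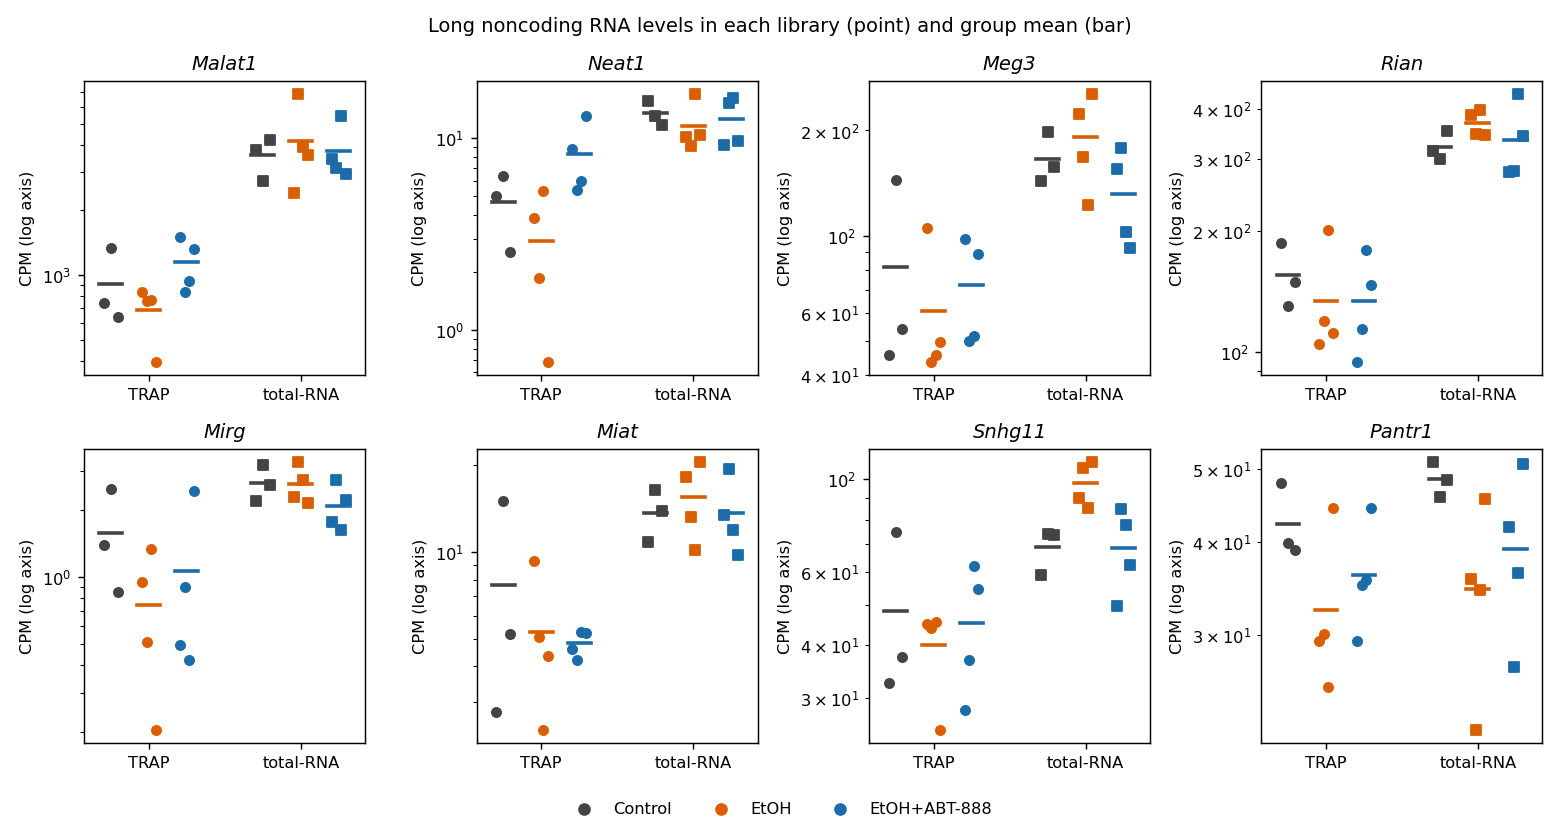
Level of each long noncoding RNA (CPM, log axis) in every TRAP (circles) and total-RNA (squares) library, coloured by treatment, with bars at group means. Malat1 lies between 2397 and 6844 CPM in total-RNA and between 395 and 1501 CPM in TRAP, without overlap, whereas the Pantr1 libraries of both sample types overlap.

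The first comparison addressed which of these RNAs were under-represented on tagged ribosomes relative to the total-RNA of the same cleared homogenate. Across 8 RNAs and 3 treatments, the log2 fold change of TRAP against total-RNA was below 0 in 24 of 24 cases, and 15 passed the test (edgeR's quasi-likelihood test, Benjamini-Hochberg adjusted p under 0.05 over 14072 transcripts). In Control 4 of the 8 were called lower in TRAP, where 30.4% of all transcripts were called lower and 29.5% higher. In EtOH 7 of the 8 were lower, against 26.5% of all transcripts lower and 24.3% higher. In EtOH + ABT-888 4 of the 8 were lower, against 21.5% lower and 19.5% higher. None of the 8 was called higher in any treatment. Their median log2 fold change was -0.92, -1.63 and -0.91 in the 3 treatments, and that of all transcripts tested was 0.02, 0.03 and 0.05. The 413 tested transcripts annotated as long noncoding gave 90 higher and 95 lower in Control, 77 and 100 in EtOH and 61 and 56 in EtOH + ABT-888, at medians of -0.06, 0.01 and 0.04. In bulk samples such as these, fewer cells of a type and less RNA per cell cannot be told apart. Summed astrocyte markers were at 76.8 to 346 CPM in TRAP and at 1449 to 1868 CPM in total-RNA, and summed oligodendrocyte markers at 318 to 1459 and 1603 to 3151 CPM. Summed interneuron markers went the other way, at 1656 to 2290.5 and 701 to 1004 CPM, although 1 of these 6 was called lower in Control. Of 6 excitatory neuron markers 4 were called lower and 1 higher there. The part of these cells, and of mitochondrial and nuclear RNA, in the differences below was not tested.

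**Figure D2:**
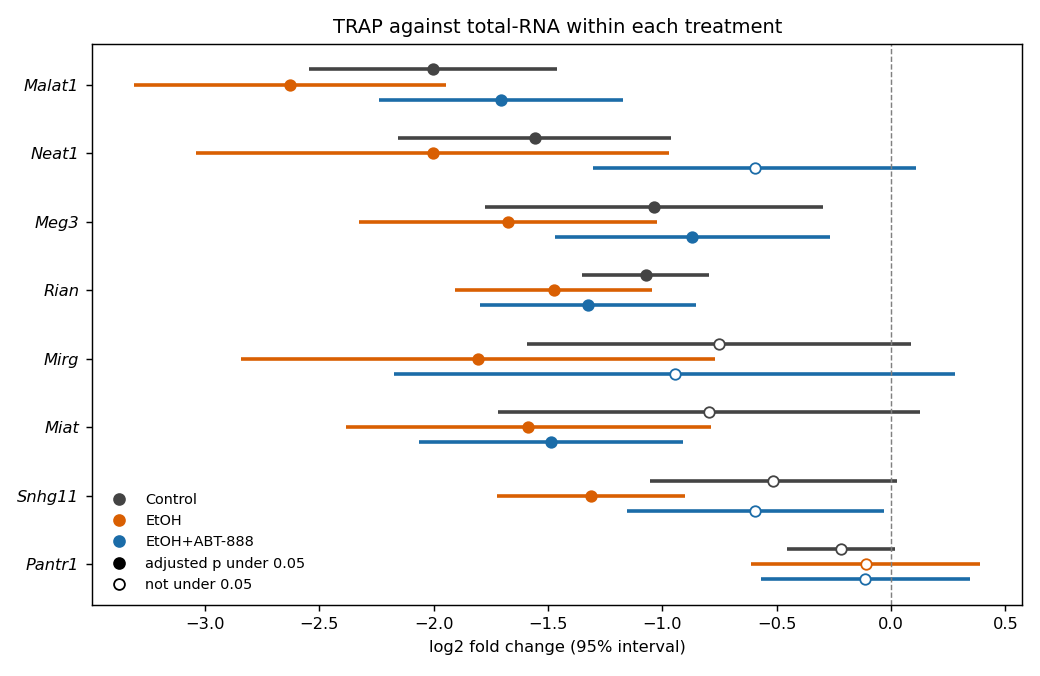
Log2 fold change of TRAP against total-RNA (x axis; lines, 95% intervals) for each long noncoding RNA within each treatment; filled points passed an adjusted p of 0.05. All 24 points lie below 0, from -2.63 for Malat1 in EtOH to -0.11 for Pantr1 in EtOH.

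Malat1, the speckle RNA, showed the lowest values of the 8 in every treatment. In Control it stood at 744, 1327 and 635 CPM in the TRAP libraries of mice 1, 4 and 7 and at 3802, 2714 and 4203 CPM in their total-RNA libraries. In EtOH the TRAP values were 828, 754, 768 and 395 CPM for mice 2, 5, 8 and 9, and the total-RNA values were 2397, 6844, 3888 and 3598 CPM. In EtOH + ABT-888 the TRAP values were 1501, 828, 932 and 1313 CPM for mice 3, 6, 10 and 11, and the total-RNA values were 3450, 3113, 5429 and 2939 CPM. Every TRAP library was thus lower than every total-RNA library, across treatments as well as within them. The log2 fold change was -2.002 (SE 0.25, adjusted p = 3.57e-05) in Control, -2.63 (SE 0.31, adjusted p = 4.85e-05) in EtOH and -1.71 (SE 0.24, adjusted p = 2.37e-04) in EtOH + ABT-888. As a fold, total-RNA was 4.01, 6.17 and 3.26 times TRAP.

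Neat1, the paraspeckle scaffold, was a low-abundance RNA with 10 to 209 counts in a TRAP library. In Control it was at 5.02, 6.37 and 2.56 CPM in TRAP and at 15.6, 13.02 and 11.8 CPM in total-RNA. In EtOH it was at 3.86, 1.86, 5.31 and 0.680 CPM in TRAP and at 10.1, 9.14, 16.9 and 10.3 CPM in total-RNA, in the order of mice 2, 5, 8 and 9. Neither pair of groups overlapped, and the log2 fold changes were -1.56 (SE 0.27, adjusted p = 4.53e-04) and -2.004 (SE 0.47, adjusted p = 0.00418). In EtOH + ABT-888 mice 3, 6, 10 and 11 gave 8.77, 5.40, 5.96 and 13.02 CPM in TRAP and 9.26, 15.3, 16.3 and 9.69 CPM in total-RNA. These groups overlapped, mouse 11 was higher in TRAP than in total-RNA, and the log2 fold change of -0.60 (SE 0.32, adjusted p = 0.161) did not pass the test. Without the TRAP library of mouse 11 it was -0.91 and passed it (adjusted p = 0.0468 by edgeR). With another library left out it was as weak as -0.45.

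Of the 3 RNAs of the Dlk1-Dio3 domain, Rian and Meg3 were called lower in TRAP in all 3 treatments and Mirg in EtOH alone. Rian had the smallest SD of the log2 ratio among mice of the 3, 0.31. Rian was at 130 to 186 CPM in Control TRAP and 302 to 352 CPM in Control total-RNA, at 105 to 201 and 344 to 398 CPM in EtOH, and at 94.6 to 179 and 280 to 434 CPM in EtOH + ABT-888. No pair of groups overlapped. Its log2 fold changes were -1.07 (SE 0.13, adjusted p = 2.50e-05), -1.48 (SE 0.20, adjusted p = 1.03e-04) and -1.32 (SE 0.22, adjusted p = 5.78e-04).

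Meg3 varied more. In Control TRAP it was at 45.7, 145 and 54.0 CPM for mice 1, 4 and 7, and in total-RNA at 143, 198 and 157 CPM. The TRAP value of mouse 4 lay inside the total-RNA range, and the log2 fold change was -1.04 (SE 0.34, adjusted p = 0.0197). The EtOH TRAP values of 105, 43.5, 45.6 and 49.8 CPM were all below the total-RNA values of 222, 168, 122 and 254 CPM, at a log2 fold change of -1.67 (SE 0.30, adjusted p = 7.19e-04). In EtOH + ABT-888 TRAP values of 98.1, 50.1, 51.7 and 88.8 CPM overlapped total-RNA values of 155, 178, 102 and 92.1 CPM, at a log2 fold change of -0.87 (SE 0.27, adjusted p = 0.0247). The Control call was lost with DESeq2 (adjusted p = 0.0787) and without the TRAP library of mouse 1 (log2 fold change -0.75) or mouse 7 (-0.80) or the total-RNA library of mouse 4 (-0.89), and without the TRAP library of mouse 4 the value was -1.74. The EtOH + ABT-888 call was lost without the total-RNA library of mouse 3 (-0.78) or mouse 6 (-0.69) or the TRAP library of mouse 6 (-0.73).

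Mirg, the microRNA host, had only 3 to 45 counts in a TRAP library and 48 to 104 in a total-RNA library. Its EtOH groups did not overlap (0.204 to 1.33 CPM in TRAP, 2.16 to 3.28 CPM in total-RNA) and the log2 fold change of -1.81 (SE 0.48) passed the test with an adjusted p of 0.00762 by edgeR. In Control (-0.75, SE 0.38) and EtOH + ABT-888 (-0.95, SE 0.56) the groups overlapped and the test was not passed. Without the TRAP library of Control mouse 4 the Control value was -1.33, and without that of mouse 11 the EtOH + ABT-888 value was -1.86, both past the threshold. With another library left out they were as weak as -0.41 and -0.65.

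Miat, the ACTAAC-repeat RNA, was at 2.41 to 9.31 CPM in EtOH TRAP and at 10.1 to 20.5 CPM in EtOH total-RNA, a log2 fold change of -1.59 (SE 0.37, adjusted p = 0.00359). In EtOH + ABT-888 the 4 TRAP libraries lay close together, at 4.20 to 5.28 CPM, against 9.72 to 19.4 CPM in total-RNA (-1.49, SE 0.26, adjusted p = 9.95e-04). In Control mice 1, 4 and 7 gave 2.77, 15.1 and 5.18 CPM in TRAP and 10.8, 16.4 and 13.9 CPM in total-RNA. There mouse 4 was close to its total-RNA level, the groups overlapped, and the log2 fold change of -0.80 (SE 0.42, adjusted p = 0.123) did not pass.

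Snhg11, the small nucleolar RNA host, was lower in TRAP in EtOH only by the test, at 45.1, 44.1, 45.6 and 25.1 CPM for mice 2, 5, 8 and 9 against 90.3, 106, 85.5 and 109.8 CPM in total-RNA. These groups did not overlap, and the log2 fold change was -1.31 (SE 0.19, adjusted p = 1.64e-04). In Control it was -0.52 (SE 0.25, adjusted p = 0.0909) and in EtOH + ABT-888 -0.59 (SE 0.26, adjusted p = 0.0850), with overlapping groups in both. Without the TRAP library of EtOH + ABT-888 mouse 10 the latter was -0.79 and past the threshold (adjusted p = 0.0238 by edgeR), and with another library left out it was as weak as -0.42. Whether EtOH differed from Control in this is given with the interaction below, and whether it differed from EtOH + ABT-888 was not tested.

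Pantr1, the neighbour of Pou3f3, did not differ by the test in any treatment. Its log2 fold changes were -0.22 (95% interval -0.45 to 0.02) in Control, -0.11 (-0.61 to 0.39) in EtOH and -0.11 (-0.57 to 0.35) in EtOH + ABT-888. The Control value was -0.31 and past the threshold (adjusted p = 0.0314 by edgeR) without the TRAP library of mouse 1. With another library left out it was as weak as -0.16.

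By the animal number in the labels, each TRAP library and a total-RNA library came from the same mouse, and a fit with the mouse as a replicate block changed 3 of these calls. With the block Miat (log2 fold change -1.04, adjusted p = 0.00985) and Snhg11 (-0.60, adjusted p = 0.00893) were also lower in Control, and Snhg11 (-0.62, adjusted p = 0.00730) in EtOH + ABT-888. Members called were then 6 in Control, 7 in EtOH and 5 in EtOH + ABT-888. The TRAP library of Control mouse 4 had the highest Control TRAP level of Malat1, Neat1, Meg3, Mirg, Miat and Snhg11. Without it 7 of the 8 RNAs were called lower in Control, Miat at a log2 fold change of -1.72, Mirg at -1.33 and Snhg11 at -0.98. With another Control library left out instead, the values were as weak as -0.45, -0.41 and -0.30. In the TRAP library of mouse 4 summed astrocyte markers were at 108 CPM, against 188 and 194 CPM in the other Control TRAP libraries. Summed excitatory neuron markers there were at 6212 CPM, against 4867 and 5820 CPM. The part of these markers in its levels was not tested.

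Within mice, TRAP was lower than total-RNA in 83 of 88 pairs of values. It was lower in 11 of 11 mice for Malat1, Meg3, Rian and Miat, in 10 for Neat1, Mirg and Snhg11, and in 9 for Pantr1. The median ratio of TRAP to total-RNA CPM was 0.198 for Malat1 (range 0.110 to 0.489), 0.331 for Mirg (0.0945 to 1.10), 0.354 for Neat1 (0.0657 to 1.34), 0.373 for Miat (0.213 to 0.918), 0.374 for Meg3 (0.196 to 0.965), 0.412 for Rian (0.272 to 0.594), 0.533 for Snhg11 (0.229 to 1.01) and 0.874 for Pantr1 (0.706 to 1.34). The log2 ratio was higher for Pantr1 than for Malat1 in 11 of 11 mice, by 1.99 ± 0.96 (SD). Ordered by mean log2 ratio, the neighbours from Malat1 to Neat1, Mirg, Miat, Rian and Meg3 did not differ beyond the SD of their within-mouse difference, while Snhg11 lay above Meg3 (0.39 ± 0.34, higher in 9 of 11 mice) and Pantr1 above Snhg11 (0.76 ± 0.73, 9 of 11). EtOH mouse 9 gave the lowest ratio for 6 of the 8 RNAs, the exceptions being Rian and Pantr1.

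**Figure D3:**
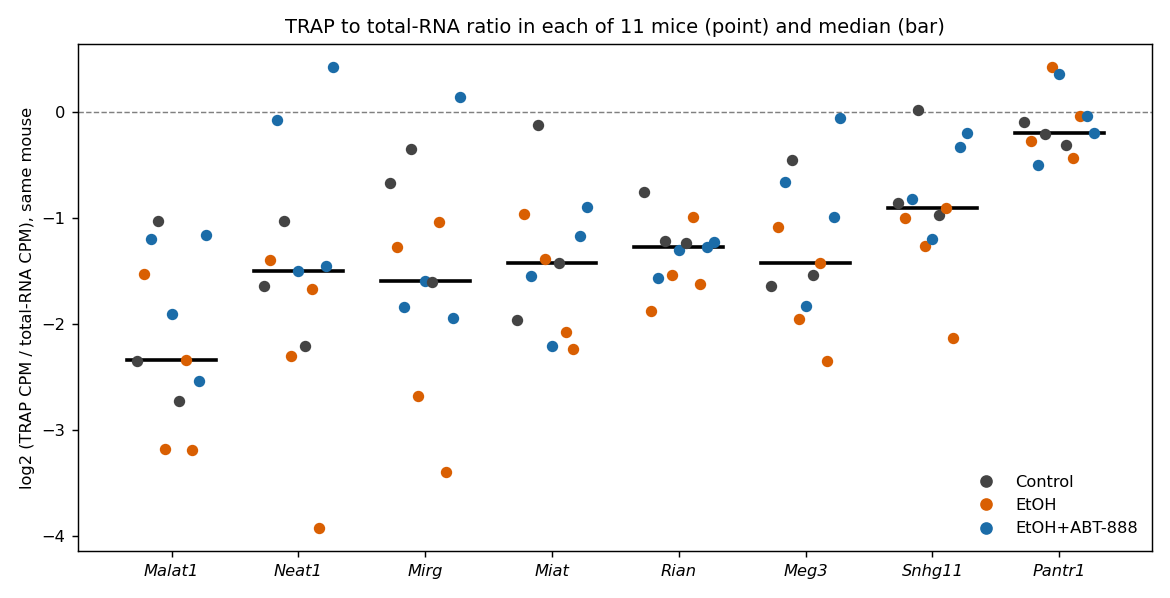
Log2 ratio of TRAP to total-RNA CPM in the same mouse (y axis) for each long noncoding RNA, ordered by mean log2 ratio; points are 11 mice coloured by treatment and bars are medians. Malat1 lies lowest and Pantr1 closest to 0, and 83 of the 88 points are below 0.

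Other noncoding RNAs gave mixed results in the same comparison. Of 11 tested spliced small nucleolar RNA hosts, 2 were lower and 0 higher in TRAP in Control (Snhg3, log2 fold change -2.24, and Snhg20, -1.11), while the 3 most abundant, Gas5 (-0.25), Zfas1 (-0.39) and Snhg12 (0.22), did not pass the test. Of 12 other long noncoding RNAs tested, 6 were lower and 3 higher. Peg13, an imprinted RNA, was the most abundant of them and was higher in TRAP (0.57, SE 0.11), C130071C03Rik (0.02) did not differ by the test, and Mir124-2hg, a microRNA host, was lower (-0.32, SE 0.12). Among 12 tested protein-coding genes of the loci of the 10 listed RNAs, 3 were higher and 4 lower in Control. The most abundant of them lie at the Snhg14 and Kcnq1ot1 loci. Snrpn was higher (0.85, SE 0.08) and Ube3a (-0.35, SE 0.10) and Cd81 (-0.90, SE 0.09) were lower. Of 13 mRNAs for paraspeckle and nuclear speckle proteins, 6 were higher and 1 (Son, -0.50, SE 0.09) lower, with Srrm2 (0.35, SE 0.09) and Matr3 (0.40, SE 0.10) among the higher and Hnrnpk (0.13) not called. The median of this last list was 0.35. Beside these counts, 29.5% of all transcripts were higher and 30.4% lower in Control. In EtOH, where the shares were 24.3% and 26.5%, the small nucleolar RNA hosts gave 2 higher and 2 lower (median 0.17, against -0.17 in Control), the other long noncoding RNAs 2 and 4, the genes of the loci 3 and 5 and the speckle proteins 4 and 1. In EtOH + ABT-888, with shares of 19.5% and 21.5%, the hosts gave 0 higher and 2 lower (median 0.40), the other long noncoding RNAs 0 and 3, the genes of the loci 3 and 3 and the speckle proteins 4 and 0.

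The effect of ethanol was compared within each sample type. In TRAP 0 of the 8 RNAs passed the test for EtOH against Control, where 5.24% of all transcripts did, and 0 had an unadjusted p under 0.05. DESeq2 and exactTest also called 0. All 8 log2 fold changes were below 0, from -1.05 for Mirg (95% interval -2.50 to 0.40) to -0.19 for Rian (-0.68 to 0.30). For Malat1 the value was -0.38 (-0.96 to 0.21) and for Pantr1 -0.36 (-0.80 to 0.07). The Control and EtOH TRAP groups overlapped for every one of the 8. The share of all transcripts with such an overlap was not counted, so no result about the 8 follows from it. In the same libraries 5 of 6 excitatory neuron markers were below 0, at a list median of -0.94, and 1 (Neurod6) was called lower, while Camk2a was at 0.47 and not called. Their part in the values of the 8 RNAs was not tested. Without the TRAP library of Control mouse 4, the values of Malat1, Meg3, Miat and Snhg11 were above 0.

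In total-RNA 1 of the 8, Snhg11, was called for EtOH against Control, and it was higher. For comparison, 17.6% of all transcripts were called in either direction. Snhg11 was at 58.8, 73.9 and 73.3 CPM in Control mice 1, 4 and 7 and at 90.3, 106, 85.5 and 109.8 CPM in EtOH mice 2, 5, 8 and 9. The groups did not overlap, and the log2 fold change was 0.51 (SE 0.13, adjusted p = 0.0156), a 1.43-fold difference. The call was lost without Control mouse 1 (0.41, adjusted p = 0.0989) and in a single fit over 22 libraries (adjusted p = 0.380). In EtOH + ABT-888 Snhg11 was at 49.6, 84.9, 77.6 and 62.3 CPM. These values were all below those of EtOH mice, and the mean of 68.6 ± 15.8 CPM lay at the Control mean of 68.7 ± 8.53 CPM (log2 fold change 0.00, 95% interval -0.40 to 0.40).

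The Snhg11 promoter is shown because this was the RNA called for treatment (chr2:158375463-158375762, plus strand, RefSeq, GRCm38.p6, 250 bases before to 50 after the start). None of TGACGTCA, TATAAA and CCAAT was found in it on either strand, so it has no capitals.

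Snhg11 promoter: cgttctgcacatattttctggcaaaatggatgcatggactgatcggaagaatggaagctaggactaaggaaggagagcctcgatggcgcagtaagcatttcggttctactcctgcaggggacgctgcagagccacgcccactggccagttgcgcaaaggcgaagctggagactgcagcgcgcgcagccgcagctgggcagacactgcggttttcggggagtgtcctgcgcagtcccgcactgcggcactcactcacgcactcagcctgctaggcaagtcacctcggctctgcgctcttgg

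Pantr1 moved the other way in the same total-RNA libraries without passing the test. It was at 51.1, 45.9 and 48.3 CPM in Control and at 35.6, 22.4, 34.5 and 45.6 CPM in EtOH. Those groups did not overlap, although EtOH mouse 9 lay just below Control mouse 4, and the log2 fold change was -0.49 (SE 0.18, unadjusted p = 0.0184, adjusted p = 0.0793 by edgeR). It was past the threshold without EtOH mouse 9 (-0.65, adjusted p = 0.0119). The other 6 RNAs lay between -0.21 (Neat1) and 0.23 (Malat1), with adjusted p between 0.189 and 0.962. Cell type markers also differed between these total-RNA libraries. Summed microglia markers were at 94.5 to 149 CPM in EtOH and 247 to 259 CPM in Control, with 4 of 6 markers called lower. Of 6 excitatory neuron markers 3 were called lower (Neurod6 and Nrgn among them) and 0 higher, at a median of -0.35. Summed interneuron markers were at 915 to 1004 and 802 to 865 CPM, but 1 of the 6 (Gad2) was called higher, 3 were below 0 and their median was 0.02. The part of these markers in the Snhg11 difference was not tested.

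Of 11 other small nucleolar RNA hosts tested, 6 were called higher and 0 lower after EtOH in total-RNA, where 9.04% of all transcripts were higher, and 5 did not pass the test. The list was chosen with earlier results of these data known, so these counts describe it and are no independent test. Zfas1 rose with a log2 fold change of 1.30 (SE 0.13, 12.3 ± 0.769 to 30.3 ± 3.21 CPM), Snhg5 of 1.24 (SE 0.22), Snhg3 of 1.00 (SE 0.18), Snhg1 of 0.94 (SE 0.28), Snhg12 of 0.77 (SE 0.15) and Gas5, a host of many C/D small nucleolar RNAs, of 0.73 (SE 0.11, 75.5 ± 9.19 to 124.8 ± 7.76 CPM). In TRAP, where 2.77% of all transcripts were higher, 5 of 11 were higher, 0 lower and 6 not called. Those higher were Zfas1 (1.77), Snhg5 (1.65), Snhg12 (1.43), Gas5 (1.40) and Snhg1 (1.20), whereas Snhg11 itself was at -0.25 (SE 0.28) there. In EtOH + ABT-888 against Control 0 of the 11 were called in either sample type, where 0.476% (TRAP) and 0.263% (total-RNA) of all transcripts were called, at medians of 0.81 in TRAP and 0.55 in total-RNA. Of the 12 other long noncoding RNAs, Mir9-3hg, host of a miR-9 gene, was higher in both sample types (1.51 in TRAP, 1.33 in total-RNA), as was C130071C03Rik (0.86 and 0.36). Mir124-2hg was called higher in TRAP (0.76) and Dleu2 lower in total-RNA (-1.08).

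Among the 12 tested protein-coding genes of the loci, EtOH against Control gave 0 calls in TRAP and 1 higher and 1 lower in total-RNA. Dlk1, the paternally expressed neighbour of Meg3, was higher in total-RNA (log2 fold change 2.64, SE 0.47; 1.60 ± 0.763 CPM in Control and 9.91 ± 6.31 CPM in EtOH), while Meg3, Rian and Mirg were at 0.21, 0.20 and -0.02 and did not pass. Frmd8, which lies near Neat1, was lower (-0.63, SE 0.16). Of the 13 mRNAs of paraspeckle and speckle proteins, 4 were called higher and 2 lower in total-RNA, where 9.04% of all transcripts were higher and 8.60% lower. In TRAP 0 were higher and 2 lower, where 2.77% of all transcripts were higher and 2.47% lower. Srrm1, Srsf2 and Srrm2 were among those higher in total-RNA, and Sfpq and Tardbp were lower. The mRNA of Sfpq, an essential paraspeckle protein, was lower in TRAP as well (-0.96, SE 0.20), as was Tardbp (-0.92, SE 0.20).

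EtOH + ABT-888 against Control gave 0 calls among the 8 in TRAP, where 0.476% of all transcripts passed, and 0 in total-RNA, where 0.263% passed. None of the 8 had an unadjusted p under 0.05 in either, and DESeq2 and exactTest called 0 of them. The largest difference was that of Neat1 in TRAP, 4.65 ± 1.93 CPM in Control and 8.29 ± 3.48 CPM in EtOH + ABT-888 (log2 fold change 0.85, 95% interval -0.02 to 1.73). In the same TRAP libraries all 6 oligodendrocyte markers were above 0, at 0.45 to 1.91 with a median of 0.87, and 0 were called. Their part in the Neat1 value was not tested. In total-RNA all 8 values lay between -0.36 and 0.07.

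EtOH + ABT-888 against EtOH, which shares libraries with both comparisons against Control, gave 0 calls among the 8 and 0% of all transcripts in TRAP, and likewise 0 and 0% in total-RNA. At an unadjusted p under 0.05 there were 136 and 269 transcripts, and DESeq2 and exactTest each called 0 and 2, none of them among the 8. In TRAP Neat1 was higher in every EtOH + ABT-888 library (5.40 to 13.02 CPM) than in any EtOH library (0.680 to 5.31 CPM), with a log2 fold change of 1.50 (95% interval 0.39 to 2.61, unadjusted p = 0.0118, adjusted p = 1.00 by edgeR). Malat1 was at 0.73 (0.22 to 1.23, unadjusted p = 0.00800 by edgeR), from 686 ± 197 to 1144 ± 317 CPM, with overlapping groups. In the same TRAP libraries all 6 oligodendrocyte markers were higher by 0.62 to 1.14 on the log2 scale and none was called, with summed levels of 318 to 723 CPM in EtOH and 318 to 1459 CPM in EtOH + ABT-888. Mouse 11, highest in Neat1, was also highest in these markers, and their part in the Neat1 and Malat1 values was not tested. In total-RNA Snhg11 was lower at -0.51 (-0.87 to -0.16, unadjusted p = 0.00860 by edgeR) and Meg3 at -0.54 (-1.07 to -0.01, unadjusted p = 0.0470 by edgeR), neither past the adjusted threshold.

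**Figure D4:**
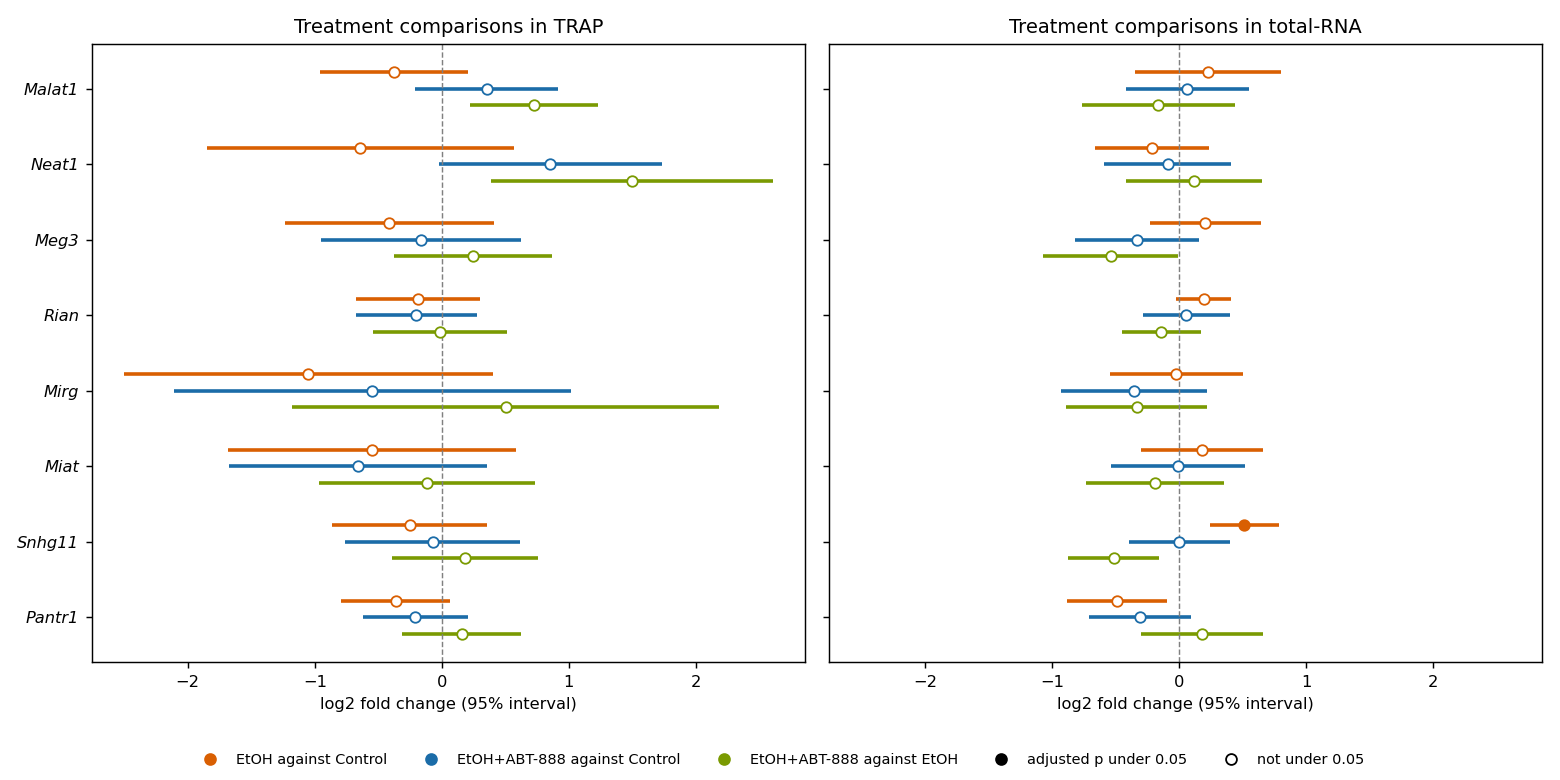
Log2 fold change (x axis; lines, 95% intervals) of each long noncoding RNA for the 3 treatment comparisons in TRAP (left) and total-RNA (right); the filled point passed an adjusted p of 0.05. Snhg11 in EtOH against Control total-RNA is the one filled point, at 0.51.

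Whether EtOH shifted TRAP against total-RNA was tested directly as an interaction. For EtOH 0 of the 8 passed, where 0.0213% of all transcripts (3) did, and for EtOH + ABT-888 0 of the 8 and 0% of all transcripts passed. None of the 8 had an unadjusted p under 0.05 in either, and DESeq2 and the likelihood ratio test called 0 of them. The interaction value for EtOH was below 0 for 7 of the 8 RNAs, with Snhg11 at -0.79 (95% interval -1.60 to 0.02, unadjusted p = 0.0567 by edgeR), Mirg at -1.05 (-2.58 to 0.49) and Malat1 at -0.62 (-1.57 to 0.33). The larger number of RNAs called lower in TRAP in EtOH than in Control was therefore not shown to be a difference between treatments.

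Patterns over the 22 libraries were compared by the root mean square difference of centred log2 CPM, as a description. Cpne3 (0.44), Psat1 (0.45) and S100a16 (0.46) were nearest to Malat1, Scai (0.20), Opcml (0.21) and Msi2 (0.23) to Rian, and Miat (0.34), Slc4a2 (0.41) and Flna (0.42) to Meg3. Among the 8 RNAs, Meg3 and Miat were nearest to each other, although they lie on different chromosomes. Rian and Snhg11 were nearest to each other (0.46), Malat1 was nearest to Rian (0.67) and Neat1 to Malat1 (0.67), and Mirg (0.67) and Pantr1 (0.70) were nearest to Snhg11.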

How the data were processed

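The authors deposited raw counts per gene, made by aligning paired-end reads of rRNA-depleted libraries to mm10 with STAR and counting with featureCounts on an ENSEMBL annotation. The deposited counts are whole reads, not normalized. Versions, the strand setting and the treatment of reads with several positions are not given in the sources used here. Identifiers were matched to GENCODE M21, which held 38872 of 39056. The study's filter was applied (at least 500 counts in all, detected in at least 3 libraries), leaving 14072 transcripts. Comparisons used R 4.3.3, edgeR 4.0.16 (TMM, quasi-likelihood test, two-sided, Benjamini-Hochberg adjustment over all tested) and the libraries of the groups compared, or all 22 for an interaction. SE is the log2 fold change divided by the root of F. The study's exactTest was an alternative, as was DESeq2 1.42.0. Group values are mean ± SD of CPM. Fits were tested on simulated data. The smallest depth, 6570957 reads, left rare RNAs with few counts. Between TRAP and total-RNA of the same mouse, deviations from the group means correlated across transcripts at 0.102 to 0.622 in all 11 mice. Libraries of different mice were not compared, so the pairing rests on the animal number in the labels. The 8 RNAs and the gene lists were chosen with earlier results of these data known. Their counts beside the shares of all transcripts are therefore descriptions and no independent test. All 8 are named. Of the host, other noncoding, locus and speckle lists, the 3 most abundant members and those called for treatment against Control (at most 6) are named, apart from 1 gene that is not reported here. Marker lists are given by counts and sums, with the markers named chosen after their values were seen.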

Additional observations from a re-analysis of the deposited data

Results flagged for a closer look

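Levels of the 8 RNAs were screened for 1 library far from the other 3 in 32 sets of values from groups of 4 mice, as the gap to the nearest library divided by the range. In 4 sets this share was above Dixon's critical value for 4 values, and chance flags about 1 in 20. Meg3 in EtOH TRAP was at 105 CPM in mouse 2 against 43.5 to 49.8 CPM in the other 3 (0.898). Rian in EtOH TRAP was at 201 CPM in mouse 8 against 105 to 119 CPM (0.849). Snhg11 in EtOH TRAP was at 25.1 CPM in mouse 9 against 44.1 to 45.6 CPM (0.931). Neat1 in EtOH total-RNA was at 16.9 CPM in mouse 8 against 9.14 to 10.3 CPM (0.845). Groups of 3 Control mice were not screened.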

How the results depend on the processing

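The 16 called fold changes kept their direction in 262 alternatives, of which 12 lost the call, and 14 alternatives called one of the 72 others. The setting with an adjusted p under 0.01 reuses the main fit, so direction could not change there. Many other alternatives leave out only 1 library. Members called for TRAP against total-RNA ranged from 3 to 7 in Control (7 without the TRAP library of mouse 4), 7 to 7 in EtOH and 3 to 6 in EtOH + ABT-888 when 1 library was left out. With mouse as a replicate block they were 6, 7 and 5, Miat being at -1.04 and Snhg11 at -0.60 in Control and Snhg11 at -0.62 in EtOH + ABT-888, and the block changed no call beyond these 3. For EtOH against Control in total-RNA the count of 1 ranged from 0 (without Control mouse 1) to 2 (without EtOH mouse 9), and was 2 without a filter on low counts (Pantr1, adjusted p = 0.00556 by edgeR), 0 at an adjusted p under 0.01 and 0 in a single fit over 22 libraries. Without a filter 6 were called in Control, and at an adjusted p under 0.01 the Meg3 calls in Control and EtOH + ABT-888 were lost. The causes were not tested. No scaling moved the median of all transcripts by more than 0.03, and leaving out the filter moved it by 0.10.

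Fold changes that were not called changed sign for 30 results. In EtOH + ABT-888 against Control in total-RNA, Miat was 0.0045 without a filter and 0.0057 with filterByExpr, and Snhg11 was -0.0019 in a single fit. The others crossed 0 when 1 library was left out, with these log2 ranges. For TRAP against total-RNA Pantr1 ranged from -0.31 to 0.059 in EtOH and -0.25 to 0.032 in EtOH + ABT-888. For EtOH against Control in TRAP the ranges were -0.58 to 0.0079 (Malat1), -0.79 to 0.29 (Meg3), -0.95 to 0.39 (Miat) and -0.47 to 0.21 (Snhg11), and in total-RNA -0.11 to 0.42 (Malat1) and -0.15 to 0.12 (Mirg). Between the EtOH + ABT-888 and Control mice they were, in TRAP, -0.45 to 0.53 (Meg3), -1.04 to 0.27 (Miat) and -0.28 to 0.37 (Snhg11), and in total-RNA -0.17 to 0.20 (Malat1), -0.24 to 0.034 (Neat1), -0.10 to 0.14 (Rian), -0.23 to 0.14 (Miat) and -0.12 to 0.13 (Snhg11). Between the EtOH + ABT-888 and EtOH mice they were, in TRAP, -0.19 to 0.25 (Rian), -0.35 to 0.95 (Mirg), -0.36 to 0.27 (Miat) and -0.0074 to 0.36 (Snhg11), and in total-RNA -0.40 to 0.18 (Malat1) and -0.029 to 0.35 (Neat1). The interaction with EtOH ranged from -1.03 to 0.080 (Meg3), -1.17 to 0.19 (Miat) and -0.083 to 0.27 (Pantr1), and that with EtOH + ABT-888 from -0.13 to 0.87 (Meg3), -1.14 to 0.34 (Mirg), -1.05 to 0.27 (Miat), -0.30 to 0.38 (Snhg11) and -0.052 to 0.22 (Pantr1).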
